A study of Sus scrofa with 2 samples.

Results

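miR-125a and miR-125b are vertebrate relatives of lin-4, the nematode miRNA that times larval development. They were followed here in small RNA from pig testis, and were found by the name given to each sequence tag. The rule took the names miR-125, miR-125a and miR-125b, whatever the species prefix, copy number or arm, which made 14 deposited entries from 10 species among 1933 entries in all. They held 3671 reads in 275 tags at 180 days, against 48961 reads in 1222 tags at 30 days. Split by name, arm and hairpin they gave 7 forms, of the 1370 forms to which all entries were merged. Of the 7 forms, 6 had 20 or more reads over both libraries.

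Junmu-1 is a white pig breed of China. Its boars gave whole testis at an age of 180 days, when they were sexually mature, and of 30 days, when they were immature. Each age was sequenced as 1 library made from the pooled RNA of 3 boars, so no value has a replicate check and no p-value is given. All intervals are exact 95% intervals and cover counting error only. The 180-day library held 852209 miRNA-matched reads and the 30-day library 7525725. Levels are given in RPM, the reads of a miRNA scaled to a common total of miRNA-matched reads, and 3 reads make 3.52 RPM at 180 days but 0.399 RPM at 30 days. The gonadal miRNA miR-202-5p, which marks the labelled tissue, had 104917 RPM at 180 days (rank 1), against 59374 RPM at 30 days (rank 7). By the tag numbers, at most 7.08% of all reads were miRNA-matched at 180 days, against at most 59.2% at 30 days, so RPM describes the makeup of the miRNA pool.

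A miRNA hairpin is cut into a duplex of a 5′ and a 3′ arm, and usually 1 of them is kept in the silencing complex. In the miR-125 hairpins that is the 5′ arm. Targets are chosen mainly by the seed, bases 2 to 8 of the mature strand. A well-known target of this family is LIN28, an RNA-binding protein of undifferentiated germ cells, which blocks the making of let-7. The hairpins of miR-125, let-7 and miR-99 or miR-100 lie together in clusters. In the RefSeq table of the Sscrofa11.1 assembly, MIR125A lies beside MIRLET7E and MIR99B, MIR125B-1 beside MIRLET7A-1 and MIR100, and MIRLET7C beside MIR99A. In human, the other hairpin of miR-125b, miR-125b-2, lies with miR-99a and let-7c.

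The leading tag of each arm, by its share averaged over the libraries, is shown first because the 3′ arms tell the hairpins apart. Capitals mark the seed, and the letters are those of the deposited tags, with T for U. The hairpins of miR-125b are called by the names of the human entries they matched.
miR-125a 5′ arm: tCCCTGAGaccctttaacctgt
miR-125b 5′ arm: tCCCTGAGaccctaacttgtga
miR-125a 3′ arm: aCAGGTGAggttcttgggagc
miR-125b-1 3′ arm: aCGGGTTAggctcttgggagt
miR-125b-2 3′ arm: aCAAGTCAggctcttgggac

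The 5′ arms of miR-125a and miR-125b have the same seed and share their first 13 bases. In the mouse entry of each, capitals mark the bases after this stretch, over which reads can be told apart.
miR-125a: tccctgagaccctTTAACCTGTGA
miR-125b: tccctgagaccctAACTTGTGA
The miR-125a entry has 24 bases and the miR-125b entry 22, at an edit distance of 3. Both hairpins of miR-125b give the same 5′ arm, whereas their 3′ arms have different seeds. Outside the members, the same seed was found in entries with few reads. The most read of them was the zebrafish name miR-125c, with 5 reads at 180 days, against 38 at 30 days.

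The first comparison asks how abundant the members were in mature and in immature testis. Both 5′ arms took a smaller part of the miRNA pool at 180 days. miR-125b, the more abundant, had 2860 reads at 180 days (3356 RPM, rank 36), against 36658 reads at 30 days (4871 RPM, rank 26). Its ratio of 180 to 30 days was 0.689 (0.663 to 0.716), or 1.45-fold lower. miR-125a had 679 reads at 180 days (797 RPM, rank 73), against 10972 reads at 30 days (1458 RPM, rank 50). Its ratio was 0.546 (0.505 to 0.591), or 1.83-fold lower, so the interval of miR-125a lay wholly below that of miR-125b. In bulk tissue, fewer cells of a type and less RNA per cell cannot be told apart.

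Neither 5′ arm reached the 2-fold rule used here, a ratio of at least 2 or at most 0.5 with an interval that excludes 1. Of the 6 forms with 20 or more reads, 2 were past it on the higher side and 0 on the lower side. Over all 442 miRNAs with as many reads, 30.8% were past it on the higher side and 11.1% on the lower side. The 2 forms were the miR-125b-1 3′ arm and the honeybee entry of miR-125, which had 12 reads at 180 days, against 50 at 30 days. An interval wholly under 1 was found for 3 of the 6 forms and for 23.1% of all, and one wholly over 1 for 2 of the 6 forms and for 43.0% of all. The 6 forms had a median log2 ratio of -0.37, against 0.27 over all 442. The TMM scaling of edgeR moves every log2 ratio by -0.97. With it 4 of the 6 forms were past 2-fold on the lower side, as were 34.6% of all 442, and 0 of the 6 on the higher side. The 4 were the 5′ arms of miR-125a (0.279) and miR-125b (0.352) and the 3′ arms of miR-125b-2 (0.338) and miR-125a (0.446). The last of these had 8 reads at 180 days and an interval of 0.186 to 0.921.

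**Figure D1:**
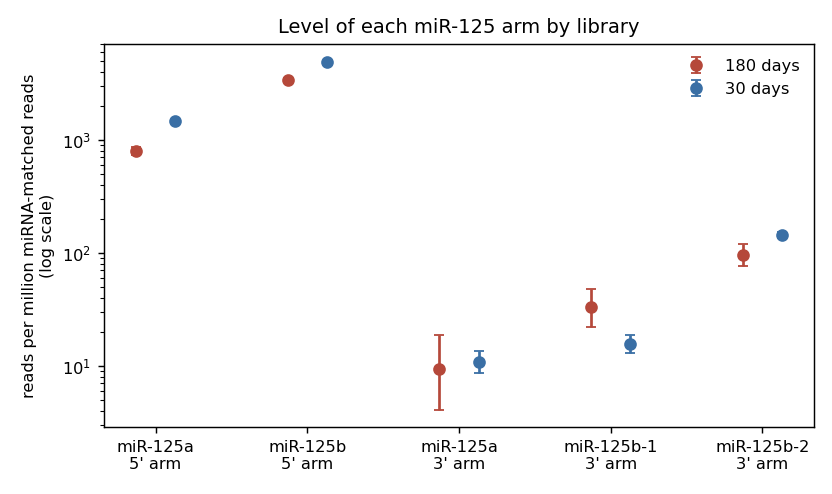
Level of each miR-125 arm in RPM (log axis) in the 180-day library (red) and the 30-day library (blue), with exact 95% Poisson intervals of the counts. The 5′ arms and the miR-125b-2 3′ arm lie lower at 180 days, and the miR-125b-1 3′ arm lies higher in RPM.

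The balance between miR-125a and miR-125b does not depend on the scaling. miR-125a made up 19.2% of the reads of both 5′ arms at 180 days (17.9 to 20.5%), against 23.04% at 30 days (22.7 to 23.4%). The intervals do not overlap, so miR-125a had the smaller part at 180 days by more than counting error. How far boars of 1 age differ in this share was not measured.

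Next, the 3′ arms were used to look at the hairpins one by one. In RPM, the 3′ arm of miR-125b-1 was higher at 180 days, and that of miR-125b-2 was lower. miR-125b-1 had 28 reads at 180 days (32.9 RPM), against 118 reads at 30 days (15.7 RPM), and its ratio was 2.10 (1.34 to 3.19). miR-125b-2 had 81 reads at 180 days (95.05 RPM), against 1081 reads at 30 days (144 RPM), and its ratio was 0.662 (0.521 to 0.830). miR-125b-1 gave 25.7% of the miR-125b 3′ arm reads at 180 days (17.8 to 34.9%), against 9.84% at 30 days (8.21 to 11.7%). This share does not depend on the scaling, and its intervals do not overlap.

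The ratio of the miR-125b-1 arm itself does depend on it. It was 1.07 with TMM scaling, and 0.251 per read of the whole library. The whole-library totals were inferred from the tag numbers as the lowest possible, and no upper total could be set at 180 days. Without tags of 1 read, 19 reads were left at 180 days, against 103 at 30 days, and the log2 ratio of 0.72 had an interval of -0.06 to 1.44, so the call was lost. The miR-125b-1 share was then 21.6% at 180 days (13.5 to 31.6%), against 9.11% at 30 days (7.49 to 10.9%), again without overlap.

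Over both hairpins, the 3′ arm was a small part of miR-125b. It made up 3.67% of miR-125b reads at 180 days (3.02 to 4.41%), against 3.17% at 30 days (2.99 to 3.35%). The 3′ arm of miR-125a was rarer still, with 8 reads at 180 days, against 81 at 30 days, and a ratio of 0.872 (0.364 to 1.80). It made up 1.16% of miR-125a reads at 180 days (0.504 to 2.28%), against 0.733% at 30 days (0.582 to 0.910%). At this depth no difference between the libraries was detectable in either arm share.

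The cluster partners were then set beside the hairpins. Around miR-125b-1, miR-100 was higher in RPM at 180 days, with 25970 RPM, against 14513 RPM at 30 days, and a ratio of 1.79 (1.76 to 1.82). Of the reads named miR-100, 9.40% at 180 days (9.02 to 9.79%), against 32.5% at 30 days (32.2 to 32.8%), had fewer mismatches to the human entry of miR-99a than to that of miR-100. With tags that match their entry in full, miR-100 had a ratio of 2.35 (2.30 to 2.39). Its star arm, the rarer one, had 8 reads at 180 days, against 14 at 30 days, and a ratio of 5.05 (1.83 to 12.9). The remaining partner, let-7a, was taken to be the sequence listed under the name let-7, an identity that rests on background knowledge. It had a ratio of 0.900 (0.893 to 0.906), below the interval of the miR-125b-1 3′ arm. A separate form named let-7a had 15 reads at 180 days, against 236 at 30 days, and a ratio of 0.561 (0.309 to 0.945). The let-7a star arm had a ratio of 2.65 (1.54 to 4.37), from 21 reads at 180 days, against 70 at 30 days. In mammals let-7a is also made from hairpins elsewhere. The direction of miR-100 turned with TMM scaling, to a ratio of 0.915 (0.902 to 0.928), whereas full matches gave 1.20 (1.18 to 1.22). Per read of the whole library both were below 1, at 0.214 and 0.280, and the star arms of miR-100 and let-7a were at 0.604 (0.219 to 1.54) and 0.317 (0.185 to 0.522).

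Around miR-125b-2, both partners were lower at 180 days. miR-99a had 54554 RPM at 180 days, against 83893 RPM at 30 days, and its ratio of 0.650 (0.644 to 0.656) lay within the interval of the miR-125b-2 3′ arm. Its star arm had 22 reads at 180 days, against 379 at 30 days, and a ratio of 0.513 (0.317 to 0.788). let-7c had a ratio of 0.476 (0.471 to 0.481) and was past the 2-fold rule, with its interval wholly below that of the miR-125b-2 3′ arm. The star arm of let-7c had 4 reads at 180 days, against 26 at 30 days, too few to place its ratio of 1.36 (0.345 to 3.92) above or below 1. TMM scaling and scaling per read of the whole library lower every ratio, so those of miR-99a and let-7c, already below 1, could not turn with them.

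Around miR-125a the partners differed from each other. let-7e had 7009 RPM at 180 days, against 13298 RPM at 30 days, and its ratio of 0.527 (0.513 to 0.541) lay within the interval of miR-125a. miR-99b had 1013 RPM at 180 days, against 804 RPM at 30 days, and a ratio of 1.26 (1.17 to 1.35). With full matches only, miR-99b had a ratio of 1.00 (0.871 to 1.15). The ratio of miR-99b turned to 0.644 (0.599 to 0.692) with TMM scaling and 0.151 per read of the whole library. The star arms of let-7e and miR-99b had ratios of 1.77 (0.919 to 3.16) and 0.704 (0.444 to 1.07), both with intervals that include 1.

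**Figure D2:**
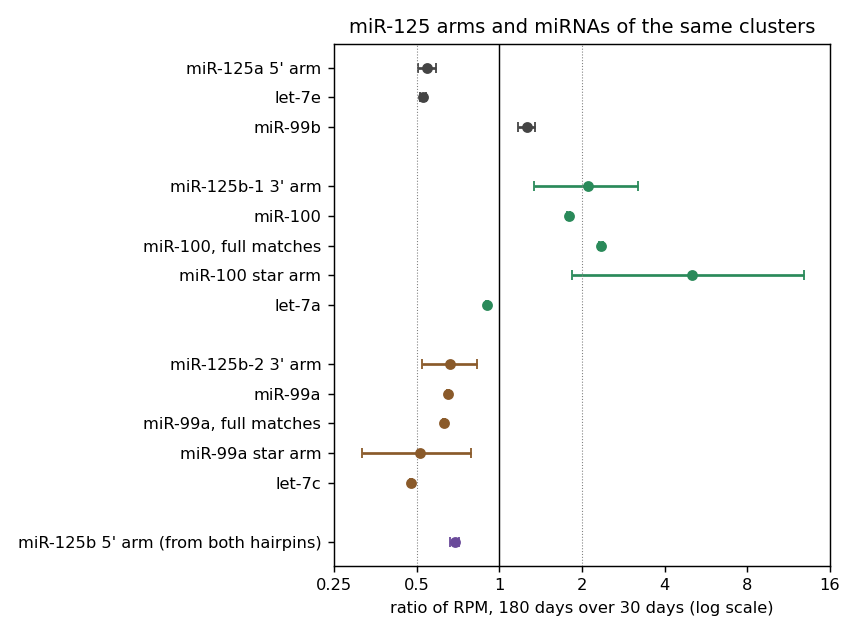
Ratio of RPM at 180 days to 30 days (log axis) for the miR-125 arms and the miRNAs of the same clusters, with exact 95% intervals. Dotted lines mark ratios of 2 and 0.5. The miR-125b-1 3′ arm and the miR-100 forms lie above 1 in RPM, but below it per read of the whole library, and let-7a lies below 1. The miR-125b-2 3′ arm lies below 1 with miR-99a and let-7c. Star arms and full matches are drawn for miR-100 and miR-99a only.

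Among the 53 other miRNAs with 1000 or more reads in each library, the nearest in log2 ratio to miR-125a (-0.87) were miR-25 (-0.88), miR-199a-3p (-0.86) and let-7e (-0.92). The nearest to miR-125b (-0.54) were the 3′ arm of miR-202 (-0.61), miR-99a (-0.62) and miR-130a (-0.40). Of these 53, 7 had a lower ratio than miR-125a and 12 a lower ratio than miR-125b. This likeness rests on a single ratio between 2 libraries.

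The 5′ end was examined because it sets the seed. Nearly all reads of both 5′ arms began at base 1. In miR-125b this share was 96.7% at 180 days (96.0 to 97.3%), against 97.7% at 30 days (97.5 to 97.8%). In miR-125a it was 92.6% at 180 days (90.4 to 94.5%), against 97.1% at 30 days (96.8 to 97.4%). The difference in miR-125a lay in reads that were placed from base 3, most of them without the first 2 bases. They made up 6.19% of miR-125a reads at 180 days (4.49 to 8.27%), against 1.94% at 30 days (1.69 to 2.22%). The same start in miR-125b had 1.85% at 180 days (1.39 to 2.42%), against 1.20% at 30 days (1.09 to 1.32%). A few of the tags placed so keep base 1 and the full seed and lack bases further in. The most read of these had 0 reads at 180 days, against 4 at 30 days, in miR-125a. In miR-125b it had 0 reads at 180 days, against 14 at 30 days.

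The leading tags of this shifted form are shown with their own bases 2 to 8 in capitals, which differ from the seed of the full form.
miR-125a from base 3: cCTGAGACcctttaacctgt
miR-125b from base 3: cCTGAGACcctaacttgtga
The miR-125a tag had 16 reads at 180 days, against 115 at 30 days, and the miR-125b tag had 34 reads at 180 days, against 267 at 30 days. At 180 days the 42 shifted reads of miR-125a were spread over 12 tags, and 6 of these reads came from tags of 1 read. Without tags of 1 read, the shifted share was 5.76% at 180 days (4.07 to 7.89%), against 1.85% at 30 days (1.60 to 2.12%).

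The same start, 2 bases inside the leading one, was measured in the 75 other miRNAs with 500 or more reads in each library. Its median share was 0.136% at 180 days, against 0.175% at 30 days, and it was higher at 180 days in 28 of the 75. miR-125a had a 3.19-fold higher share at 180 days than at 30 days, and miR-125b a 1.54-fold higher one. Of the 73 other miRNAs with such reads at 30 days, 0 had a ratio as high as miR-125a, and their median ratio was 0.824. At 180 days 1 of the 75 had as large a share as miR-125a, and 7 had as large a share as miR-125b. Some of the others, such as miR-25 and miR-92a, had no such reads at 180 days. This start was picked after values were seen, so the place of miR-125a among the others is a description and not a test.

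**Figure D3:**
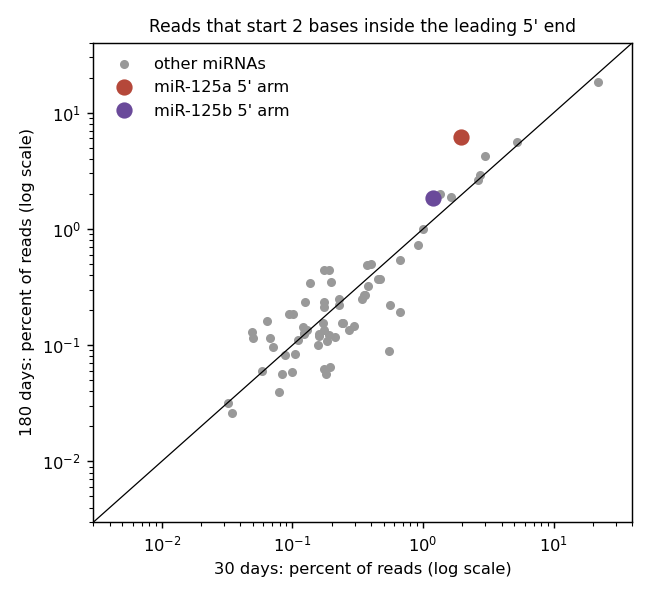
Share of reads that start 2 bases inside the leading 5′ end, at 180 days (vertical, log axis) and 30 days (horizontal, log axis), for miR-125a, miR-125b and 65 other miRNAs (10 more had a share of 0 in a library). The line marks equal shares, and miR-125a lies above it with 6.19% at 180 days, against 1.94% at 30 days.

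In the 3′ arms the leading start of miR-125b-2 lies inside the human entry, at its base 3. Reads from this start made up 82.7% at 180 days (72.7 to 90.2%), against 85.7% at 30 days (83.4 to 87.7%). The start of the human entry itself was carried by 6.17% at 180 days (2.03 to 13.8%), against 7.12% at 30 days (5.66 to 8.82%). The miR-125b-1 3′ arm began at its leading base in 92.9% of reads at 180 days (76.5 to 99.1%), against 94.9% at 30 days (89.3 to 98.1%). In each of these starts the intervals of the libraries overlap.

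The main 3′ ends of the miR-125a 5′ arm did not differ between the libraries beyond counting error. The 3′ end lay mainly at base 22, with 52.0% of reads at 180 days (48.2 to 55.8%), against 54.8% at 30 days (53.9 to 55.8%). The form ending at base 23 had 13.3% at 180 days (10.8 to 16.04%), against 12.99% at 30 days (12.4 to 13.6%). The full 24-base form, the mouse entry, took 3.53% at 180 days (2.28 to 5.21%), against 3.15% at 30 days (2.83 to 3.498%). These intervals overlap for each form.

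The miR-125b 5′ arm ended at base 22 in 61.3% of reads at 180 days (59.5 to 63.1%), against 57.6% at 30 days (57.1 to 58.1%). The form 1 base shorter had 8.71% at 180 days (7.70 to 9.80%), against 13.6% at 30 days (13.3 to 14.0%). For both forms the intervals do not overlap. The full form was also read with an added A, here in capitals.
miR-125b with added A: tccctgagaccctaacttgtgaA
It made up 10.0% of reads at 180 days (8.96 to 11.2%), against 9.20% at 30 days (8.91 to 9.502%). Forms that ended in added A alone, whatever their last matching base, had 10.98% of miR-125b reads at 180 days (9.86 to 12.2%), against 9.88% at 30 days (9.57 to 10.2%). In miR-125a such forms had 2.80% at 180 days (1.69 to 4.34%), against 2.12% at 30 days (1.86 to 2.41%), so they were the rarer ones in both libraries. Without the pig hairpin sequence, an added base cannot be told from a templated one.

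**Figure D4:**
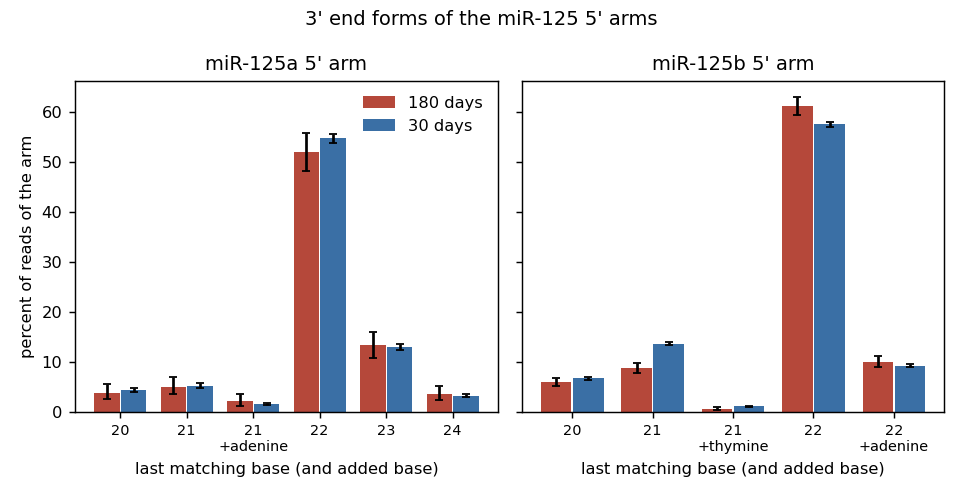
Share of reads of the miR-125a and miR-125b 5′ arms by the last base that matches the entry and any added base, in the 180-day (red) and 30-day (blue) libraries, with exact 95% binomial intervals. miR-125a ends mainly at bases 22 and 23, and miR-125b at base 22, with an added A in 10.0% of reads at 180 days, against 9.20% at 30 days.

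The 3′ arm of miR-125b-1 was mostly read with an end unlike its entry. Its leading tag ends in a T after base 20 and made up 35.7% of reads at 180 days (18.6 to 55.9%), against 37.3% at 30 days (28.6 to 46.7%). Added T alone was found in 39.3% at 180 days (21.5 to 59.4%), against 39.0% at 30 days (30.1 to 48.4%). For miR-125b-2 it was found in 11.1% at 180 days (5.21 to 20.05%), against 11.2% at 30 days (9.38 to 13.2%). Between the libraries these shares did not differ beyond counting error.

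Single-base changes of the leading 5′ arm tags were counted among tags of the same length, whatever their name. Positions count from 1 at the 5′ end, and the leading tag's base comes first. Among changes in the seed, C2T and C3T were the most frequent in both miRNAs and both libraries. C2T had 2.22% in miR-125a at 180 days (0.961 to 4.32%), against 1.84% at 30 days (1.52 to 2.21%). In miR-125b it had 1.24% at 180 days (0.778 to 1.87%), against 1.30% at 30 days (1.15 to 1.46%). The intervals of the libraries overlap for both.

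C3T, the next change, was nearly as frequent. It had 1.94% in miR-125a at 180 days, against 1.60% at 30 days, and 1.18% in miR-125b at 180 days, against 1.06% at 30 days. C4T had 0.563% in miR-125a at 180 days, against 0.595% at 30 days, and 0.510% in miR-125b at 180 days, against 0.523% at 30 days. The remaining seed changes stayed at or under 0.265% in miR-125a and 0.462% in miR-125b at 30 days.

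These changes were set against the same change in other miRNAs at 30 days, in leading tags of 5000 or more reads. Of the 4 others with C at position 2, the highest had 0.181% of C-to-T change, below both miR-125a and miR-125b. Of the 17 with C at position 3, the median was 0.138% and the highest 1.08%, under miR-125a and just over miR-125b. Of the 15 with C at position 4, the median was 0.185% and the highest 2.38%, over both miR-125a and miR-125b, and 2 were as high as miR-125b. A7G is of the kind of change that A-to-I editing leaves in reads. At 30 days it had 0.149% in miR-125a (0.0683 to 0.283%, 9 reads) and 0.142% in miR-125b (0.0957 to 0.202%, 30 reads). In 21 other miRNAs with A there, the median was 0.0864% and the highest 0.145%, so miR-125a lay above all 21, and 1 of them was as high as miR-125b. The highest of the 21 lies within both intervals. A7C, another change of the same base, was more frequent than A7G at 30 days, with 0.265% in miR-125a and 0.462% in miR-125b. Whether A7G comes from editing was not tested.

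Changes at the last base included the largest. T22A of miR-125a had 3.81% at 180 days (2.10 to 6.32%), against 2.70% at 30 days (2.31 to 3.14%). A22T of miR-125b had 0.960% at 180 days (0.560 to 1.53%), against 1.75% at 30 days (1.58 to 1.94%), without overlap. At this position a changed base and a trimmed end with an added base give the same tag.

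**Figure D5:**
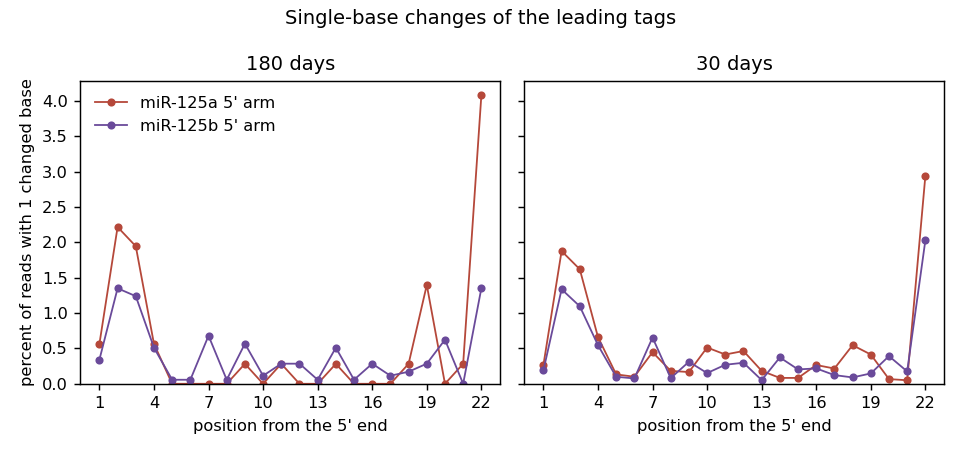
Share of reads with 1 changed base at each position, among those reads and the leading tag, for the miR-125a and miR-125b 5′ arms at 180 days (left) and 30 days (right). Both show a peak at positions 2 and 3 and another at position 22.

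The name miR-125 without a letter held the remaining members, which were rare. The honeybee entry, which differs from miR-125b by T1C, had 12 reads at 180 days, against 50 at 30 days, and a ratio of 2.12 (1.03 to 4.04), which was 1.08 (0.525 to 2.06) with TMM scaling and 0.253 per read of the whole library. The leading miR-125b tag with exactly this change had 5 of these reads at 180 days, against 20 at 30 days. The platypus star entry had 3 reads at 180 days, against 1 at 30 days, a ratio of 26.5 with an interval of 2.13 to 1391, and none of its tags matched that entry in full.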

How the data were processed

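The authors deposited 1 list per library of distinct tags that match known miRNAs of any species. It gives each tag's sequence and raw read count, with the name and sequence of 1 matched entry. Per the labels' protocols, RNA of about 18 to 30 nucleotides was cut from a gel and amplified with 15 PCR cycles. Not given in the sources used here are the genome build, the matching program and the miRBase release. No molecular identifiers are named, so reads are not independent molecules. The deposited match score was used only in the alternative that gives tags to their best match. Counts were used as deposited and summed by deposited name, with hairpins of the 3′ arm told apart by entry sequence. Other entries counted as 1 miRNA if they shared a name and lay within 3 edits, or if at least 17 bases were identical at a shift of at most 3. RPM used the miRNA-matched total of each library, also for the full matches of the cluster partners. In alternatives that kept only some tags, the ratios of the members used the total of the tags kept. Ratios have exact conditional (Clopper-Pearson) 95% intervals, and shares exact binomial ones, from scipy 1.17.1; their computation was tested on simulated data. Starts were placed without gaps, so a tag with a missing base may be placed 1 or more bases off. Ends were read from the longest match from base 1, of 17 or more bases, with up to 3 added bases. TMM factors came from edgeR 4.0.16 and median-of-ratios factors from DESeq2 1.42.0. Whole-library totals were inferred by reading tag numbers as ranks and are the lowest possible. Members, gene lists and alternatives were chosen with earlier results of these data known. Named were all members, the main arms of the cluster partners, the 3 nearest miRNAs in ratio, and the leading tags. Star arms of the partners, the start at base 3, the scaling of the partners and comparisons with other miRNAs were added after values were seen.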

Additional observations from a re-analysis of the deposited data

How the results depend on the processing

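No paired analysis was possible because each age had 1 library, and for the same reason no replicate could be left out. The log2 ratio of miR-125a was -1.84 with TMM scaling, -1.84 with median-of-ratios scaling and -3.94 per read of the whole library, and that of miR-125b was -1.51, -1.51 and -3.60. Scaling moved all log2 ratios by -0.97 (TMM), -0.97 (median of ratios) or -3.06 (whole library), and the log2 ratio of the miR-125b-1 3′ arm turned to -2.00 with the last. With full matches only, scaled to the reads kept, the log2 ratio of miR-125b was -0.35. Scaled to all miRNA-matched reads, the same miR-125b tag had a ratio of 0.733 (0.698 to 0.770). The miR-125a share with full matches was 21.1% at 180 days and 27.0% at 30 days. This filter is unequal, since miR-125a has entries of 22, 23 and 24 bases, and miR-125b only an entry of 22. The miR-125a share was 22.6% at 30 days with tags of 20 to 24 nucleotides. The scalings lower every log2 ratio, so both 5′ arms had to stay under 1 with them. Both also had a ratio under 1 in the alternatives that filtered tags or gave them to their best match. Giving tags to their best match moved 59 reads to miR-125b at 30 days. Calls past 2-fold over all miRNAs numbered 185 (136 higher, 49 lower), 296 with no minimum of reads, 117 with a minimum of 100, and 397 per read of the whole library (25 higher, 372 lower). With TMM 64 were higher and 153 lower. At 180 days full matches left 0 reads of the miR-125b-1 3′ arm and 4 of the miR-125b-2 3′ arm, so no ratio of the first could be given. Scaled to the reads kept, the log2 ratio of the miR-125b-2 3′ arm was -1.25 (-3.16 to 0.15).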
